A study of Arabidopsis thaliana with 30 samples.

Results

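The genes described here were defined by a fall in signal late in wild-type seed development that was missing in all 3 mutants of the study. A gene belonged to the group if its mean log2 signal was at least 2 lower at 12 than at 8 days after flowering (DAF) in both wild types, Col-0 and WS, while its change over the same days stayed above -1 in each of fus3-3, lec1-1 and lec2-1. A difference of 1 on the log2 scale is a 2-fold difference in signal. Of 13355 genes measured by a probe set of their own, 122 met these limits. The members are 113 of these 122, since PSAE-1, PSAN, PSBW, PSBY, ATPC1, PRK, PORB, LHCB4.2 and AT3G16370 were left out by name. The measured age changes chose the members, so the age changes below, and the differences between mutant and wild type on the same arrays, are descriptions without a test.

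RNA of whole Arabidopsis thaliana seeds, freed from the siliques, was hybridised to Affymetrix arrays, with 3 arrays from separate batches of plants in each of 10 groups. The Col-0 arrays at 12 DAF alone carry a double number in their labels, so separate batches are less certain for that group. Col-0 is the wild type of fus3-3, and WS is the wild type of lec1-1 and lec2-1. All 3 mutants were homozygous, each was represented by 1 allele, and each of the 5 genotypes was sampled at 8 and 12 DAF from plants grown in 16 h of light and 8 h of dark at 22 °C. No probe set was assigned to LEC1, LEC2 or FUS3 alone, so the mutant labels were not checked against the mutated genes. The highest array median was 4.71 on the log2 scale, the arrays' lowest values lay between 1.65 and 1.76, and replicate arrays correlated over genes at 0.984 to 0.996.

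LEC1 is a subunit of a CCAAT-binding transcription factor, and LEC2 and FUS3 are transcription factors with a B3 DNA-binding domain. Together they promote the maturation programme of the embryo, in which reserves are laid down and desiccation tolerance is gained, and mutant embryos carry some traits of seedlings. The Arabidopsis embryo is green in mid-development: its plastids hold chlorophyll and photosynthetic complexes, which are dismantled as the seed matures. Plastid proteins come partly from nuclear genes and partly from genes of the plastid's own genome, which are translated on plastid ribosomes.

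A fall of this size in both wild types was found in 362 genes. Of them, 122 (33.7%) stayed above -1 in all 3 mutants and 123 (34.0%) in none of them. A further 63 stayed above -1 in fus3-3 and lec1-1 but not in lec2-1, whereas 12 did so in lec1-1 and lec2-1 but not in fus3-3. Taken mutant by mutant, 218 of the 362 were above the limit in lec1-1, 204 in fus3-3 and 136 in lec2-1.

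The median age change of the 113 members was -3.12 in Col-0 and -3.01 in WS, equal to 8.68-fold and 8.05-fold lower signal at 12 DAF. The corresponding medians in the mutants were 0.22 in fus3-3, 0.72 in lec1-1 and -0.25 in lec2-1, and the median of all genes lay between -0.02 and 0.09 in the 5 genotypes. The mutants differed among themselves in sign: 105 members had an age change above 0 in lec1-1, 69 in fus3-3 and 33 in lec2-1. Among the 3 mutants the change was highest in lec1-1 for 89 members and lowest in lec2-1 for 91. AT5G62350 had an age change of at least 1 in every mutant, with 1.46 in fus3-3, 1.89 in lec1-1 and 2.25 in lec2-1, against -2.47 in Col-0 and -3.51 in WS.

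**Figure D1:**
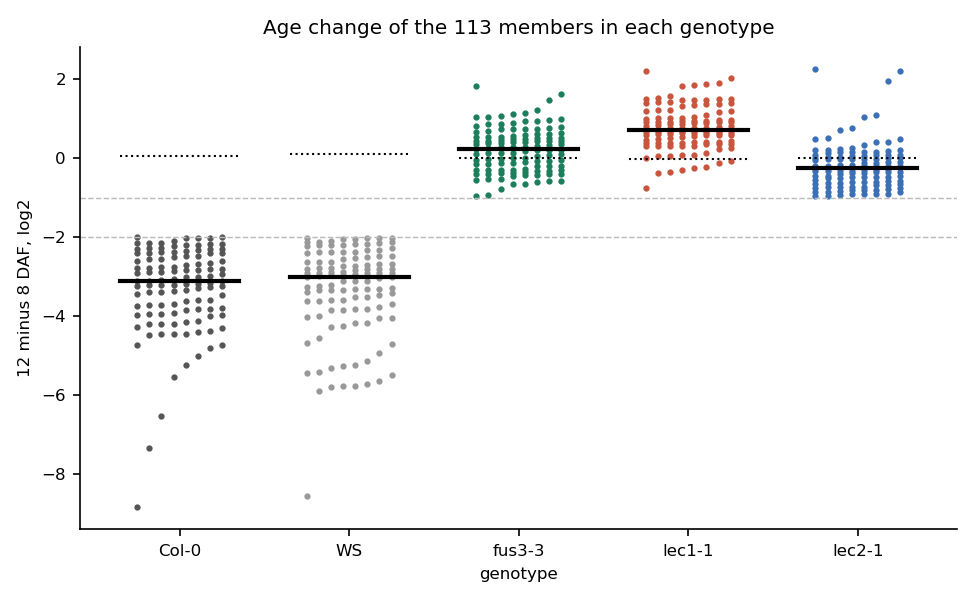
Change in log2 signal from 8 to 12 DAF for each of the 113 members (points) in the 5 genotypes, with the members' median as a solid bar, the median of all 13355 genes as a dotted bar and the limits of the rule as dashed lines at -2 and -1. Wild-type points reach down to -8.83 because the rule required a fall, and the mutant medians stand at 0.22, 0.72 and -0.25.

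At 8 DAF the members were, for the most part, near the wild-type level in the mutants. The median difference from the wild type was -0.46 in fus3-3, -0.14 in lec1-1 and -0.13 in lec2-1. At 12 DAF the corresponding medians were 2.92, 3.71 and 2.83, that is 7.55-fold, 13.1-fold and 7.09-fold higher signal. The signal at 12 DAF was at least 1 above wild type in all 3 mutants for 106 members, and at least 2 above it for 78. Signal from whole seeds is a mixture of embryo, endosperm and seed coat, and fewer cells of a type and less RNA per cell cannot be told apart in it.

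Some members already differed at the earlier age. In fus3-3, 29 members were at least 1 lower and 5 at least 1 higher than in Col-0 at 8 DAF, where 4.77% and 4.43% of all genes were. In lec1-1, 25 members were at least 1 lower and 11 at least 1 higher than in WS, where 5.8% and 4.78% of all genes were. In lec2-1 the counts were 6 lower and 3 higher, against 1.09% and 1.69% of all genes. These arrays served in the choice of the members, so the counts carry no test. Across lines, 18 members were at least 1 lower in both fus3-3 and lec1-1 than in their wild types at 8 DAF, and 5 of these (AT1G65230, AT1G75460, iqd21, AT3G59480 and AT5G02160) were as much lower in lec2-1 too. Only AT3G61820, AT5G62350 and SBT1.3, a subtilisin-like protease, were at least 1 higher in both fus3-3 and lec1-1 at 8 DAF. These 3 differences in fus3-3 were 2.07, 1.90 and 1.03. How many of all genes differed in several lines together was not counted, so these overlaps have no share to be read against.

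The description of a lost fall did not hold for every member. AT3G59480 met the limits, but its mutant values were already low at 8 DAF: they were 2.63, 3.48 and 2.61 in fus3-3, 3.77, 2.88 and 3.42 in lec1-1, and 2.69, 2.74 and 3.39 in lec2-1. At 12 DAF its 15 arrays of all genotypes lay between 2.54 and 2.76, so mutants and wild types ended alike. AT1G75460 and iqd21, a member of the IQ-domain family of calmodulin-binding proteins, were likewise low in the mutants at 8 DAF, by 2.76 and 1.82 in fus3-3 against Col-0. At 12 DAF the signal lay within 1 of wild type for 7 members in fus3-3 (AT1G75460, AT3G29240, iqd21, AT3G59480, TROL, AT4G19985 and AT5G23920), for iqd21 and AT3G59480 in lec1-1, and for AT3G59480 alone in lec2-1.

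**Figure D2:**
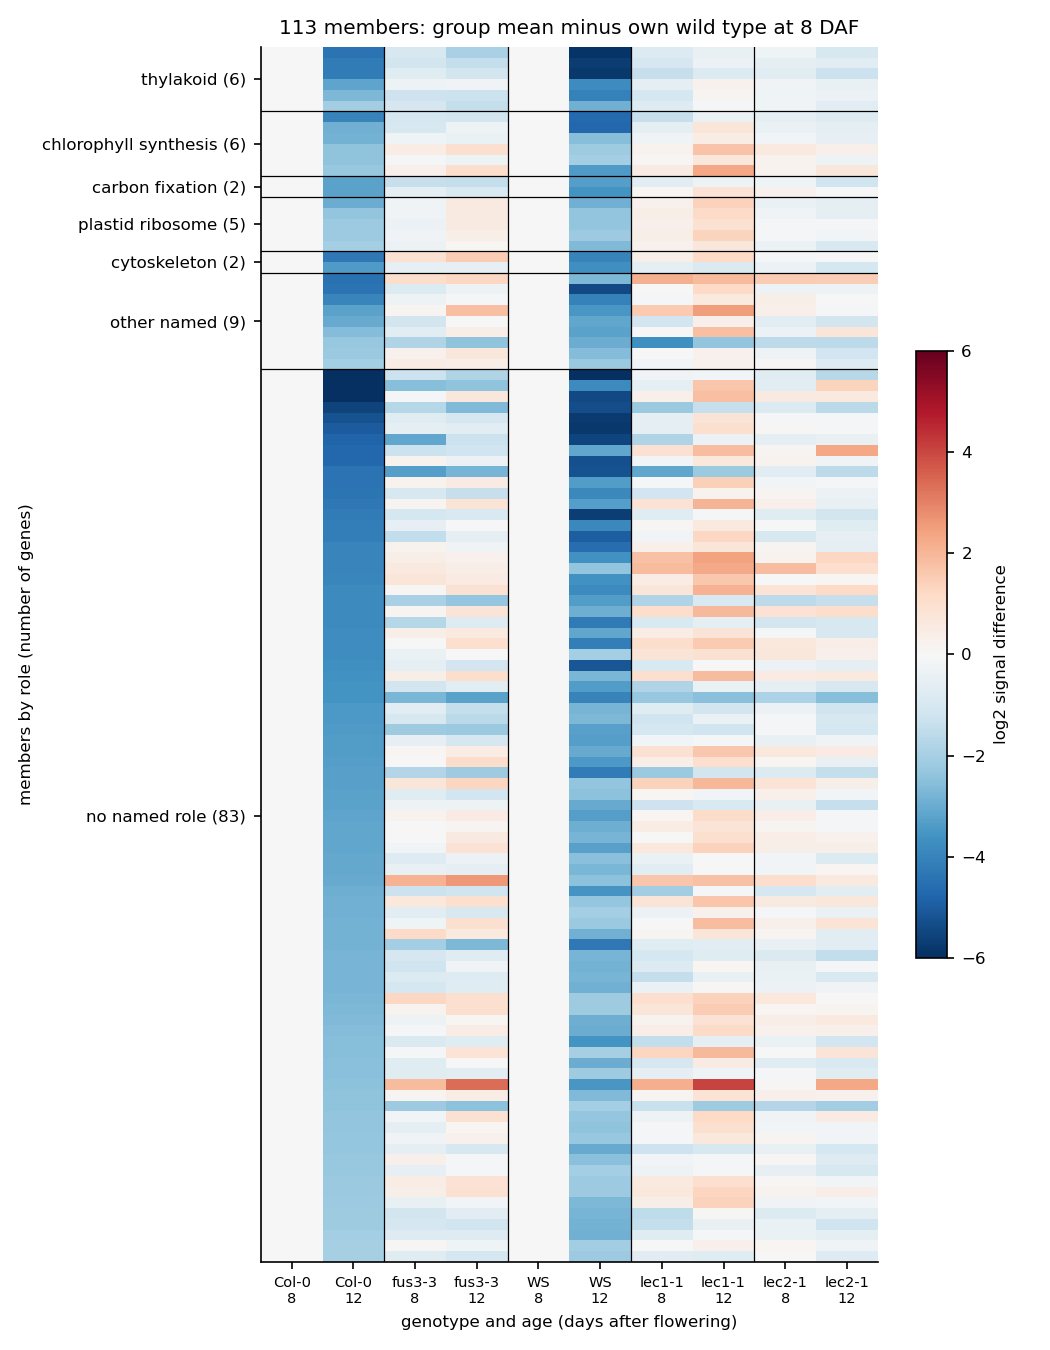
Group means of the 113 members at 8 and 12 DAF, each minus the mean of the same line's wild type at 8 DAF, on a log2 colour scale that ends at -6 and 6. Rows are genes grouped by role, and columns are genotype and age. The wild-type columns at 12 DAF are blue throughout, and the mutant columns at both ages are pale for most rows.

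Limits of the rule passed close to several genes. For the Col-0 fall, AT5G23920 (-2.004), AT2G20270 (-2.01) and bHLH115 (-2.03) lay just inside, and ASPGA1 (-1.99), AT3G23760 (-1.98) and AT2G35450 (-1.97) just outside. For the WS fall, AT1G68780 (-2.01), AT3G59480 (-2.02) and AT1G74730 (-2.03) lay inside, and EXO (-1.99), AT1G71020 (-1.95) and AT5G19290 (-1.90) outside. The mutant limit was approached in fus3-3 by LHCB4.1 (-0.96), AT5G38520 (-0.93) and AT2G28080 (-0.79) from inside and by AT3G53470 (-1.04), AT1G78995 (-1.07) and AT1G51400 (-1.21) from outside. In lec2-1, AT1G09750 (-0.96), AT2G03750 (-0.96) and AT4G28030 (-0.94) were inside, and AT3G10060 (-1.03), AT1G78060 (-1.03) and AT1G60000 (-1.03) outside. In lec1-1 no member came near the limit, the lowest being AT3G59480 (-0.75), AT2G28080 (-0.38) and SP1L3 (-0.36). Between 108 and 122 genes other than those left out by name met the limits when 1 array at a time was left out, and 86 of the 113 members met them every time.

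The largest fall was that of AT1G09750. In Col-0 it read 11.00, 11.25 and 10.81 at 8 DAF and 2.09, 2.13 and 2.35 at 12 DAF, and in WS 10.93, 10.38 and 10.65 at 8 DAF and 2.101, 2.09 and 2.11 at 12 DAF. At 12 DAF it read 9.05, 9.82 and 8.71 in fus3-3, 10.52, 10.37 and 10.57 in lec1-1, and 9.14, 8.48 and 9.30 in lec2-1. All 9 mutant arrays at 12 DAF were above 8, whereas all 6 wild-type arrays were near the lowest values of the array. Because the signal of 8 members in Col-0 and 17 in WS was under 3 at 12 DAF, close to that lowest level, their falls may be understated. The same limit may hold for members slightly above 3 with nearly equal arrays at 12 DAF. Examples are AT1G52220 in WS (3.27, 3.27 and 3.27) and TUB5 in Col-0 (3.30, 3.33 and 3.36).

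After AT1G09750, the members with the largest fall in both wild types were AT1G32470, AT5G38520, AT5G19940, AT2G42220 and AT4G16980. Their age changes in Col-0 were -6.52, -5.54, -5.23, -5.00 and -4.79, and those in WS were -5.43, -5.30, -5.75, -5.79 and -5.49. None of these 6 genes carries a gene name in the annotation used. The same 5 genes changed in lec1-1 by 1.51, 0.81, 1.37, 1.496 and 1.42. AT5G48490 fell by 7.33 in Col-0 and by 3.83 in WS, and its level at 8 DAF was lower in WS, as tested below.

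Proteins of the thylakoid, the membrane of the photosynthetic light reactions, made up 6 of the 30 members with a name or list entry. LHCB4.1 encodes a minor antenna protein of photosystem II. Its signal in Col-0 was 12.71, 12.87 and 13.00 at 8 DAF and 8.70, 8.22 and 8.44 at 12 DAF, and in WS 12.57, 12.30 and 12.01 at 8 DAF and 6.11, 6.73 and 6.37 at 12 DAF. In fus3-3 the arrays read 11.65, 12.23 and 11.80 at 8 DAF and 10.39, 11.16 and 11.25 at 12 DAF, in lec1-1 11.54, 11.47 and 11.46 and then 11.85, 11.98 and 11.74, and in lec2-1 12.05, 12.12 and 11.96 and then 11.32, 11.12 and 11.53. Every mutant array at 12 DAF lay above every wild-type array of that age. At 8 DAF the fus3-3 and lec1-1 arrays lay below all arrays of their wild types, and the lec2-1 arrays overlapped those of WS.

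The other thylakoid members had the same shape. AT4G01150 (CURT1A) and AT1G52220 (CURT1C) belong to the proteins that bend thylakoid membranes at the margins of grana. The age changes of AT4G01150 were -3.18 in Col-0 and -3.77 in WS against 0.11, 0.87 and -0.26 in fus3-3, lec1-1 and lec2-1. Those of AT1G52220 were -4.19 and -5.77 against -0.40, 0.56 and -0.65. TROL, which tethers ferredoxin-NADP+ reductase to the thylakoid, changed by -2.102 and -2.88 in the wild types and by -0.41, 0.67 and -0.46 in the mutants. NdhS, a nuclear-encoded subunit of the chloroplast NAD(P)H dehydrogenase-like complex, changed by -2.71 and -4.03 against -0.02, 1.205 and -0.11. AT2G26500, which the light-reaction list held, changed by -4.20 and -5.71 against -0.31, 0.68 and -0.10. As a class, the thylakoid members were lower than wild type at 8 DAF by a median of 0.99 in fus3-3 and 0.91 in lec1-1 and of 0.24 in lec2-1.

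Chlorophyll synthesis also held 6 members. HEME1 and HEME2 encode uroporphyrinogen decarboxylases, early in the tetrapyrrole pathway that chlorophyll shares with haem. CHLM encodes the methyltransferase that acts on magnesium protoporphyrin, AT1G74470 encodes geranylgeranyl reductase, which makes the phytyl tail, and LIL3:1 and LIL3:2 are light-harvesting-like proteins that stabilise that reductase. In the wild types, CHLM read 10.30, 10.37 and 10.31 and then 6.40, 5.64 and 6.94 in Col-0, and 10.06, 9.71 and 9.82 and then 4.86, 4.95 and 5.77 in WS. In the mutants at 12 DAF it read 8.84, 9.26 and 9.51 in fus3-3, 9.56, 9.57 and 9.31 in lec1-1, and 8.74, 9.21 and 9.29 in lec2-1. All mutant arrays thus exceeded all wild-type arrays at 12 DAF by more than the spread within any group.

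For AT1G74470 the mean signal was 12.68 ± 0.19 (SD, n = 3) in Col-0 and 12.35 ± 0.22 in WS at 8 DAF, and 9.78 ± 0.36 and 7.66 ± 0.45 at 12 DAF. Its means at 12 DAF were 12.36 ± 0.14 in fus3-3, 13.08 ± 0.04 in lec1-1 and 11.75 ± 0.25 in lec2-1, so lec1-1 was above its wild-type level of 8 DAF. The age changes of HEME1 were -2.41 in Col-0 and -2.03 in WS against -0.19, 0.59 and -0.49 in the mutants, and those of HEME2 were -2.86 and -2.54 against -0.15, 0.67 and -0.33. LIL3:1 and LIL3:2 had higher age changes in lec1-1, 1.503 and 1.82, than in fus3-3, 0.50 and 0.73, and in lec2-1, -0.25 and 0.48.

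**Figure D3:**
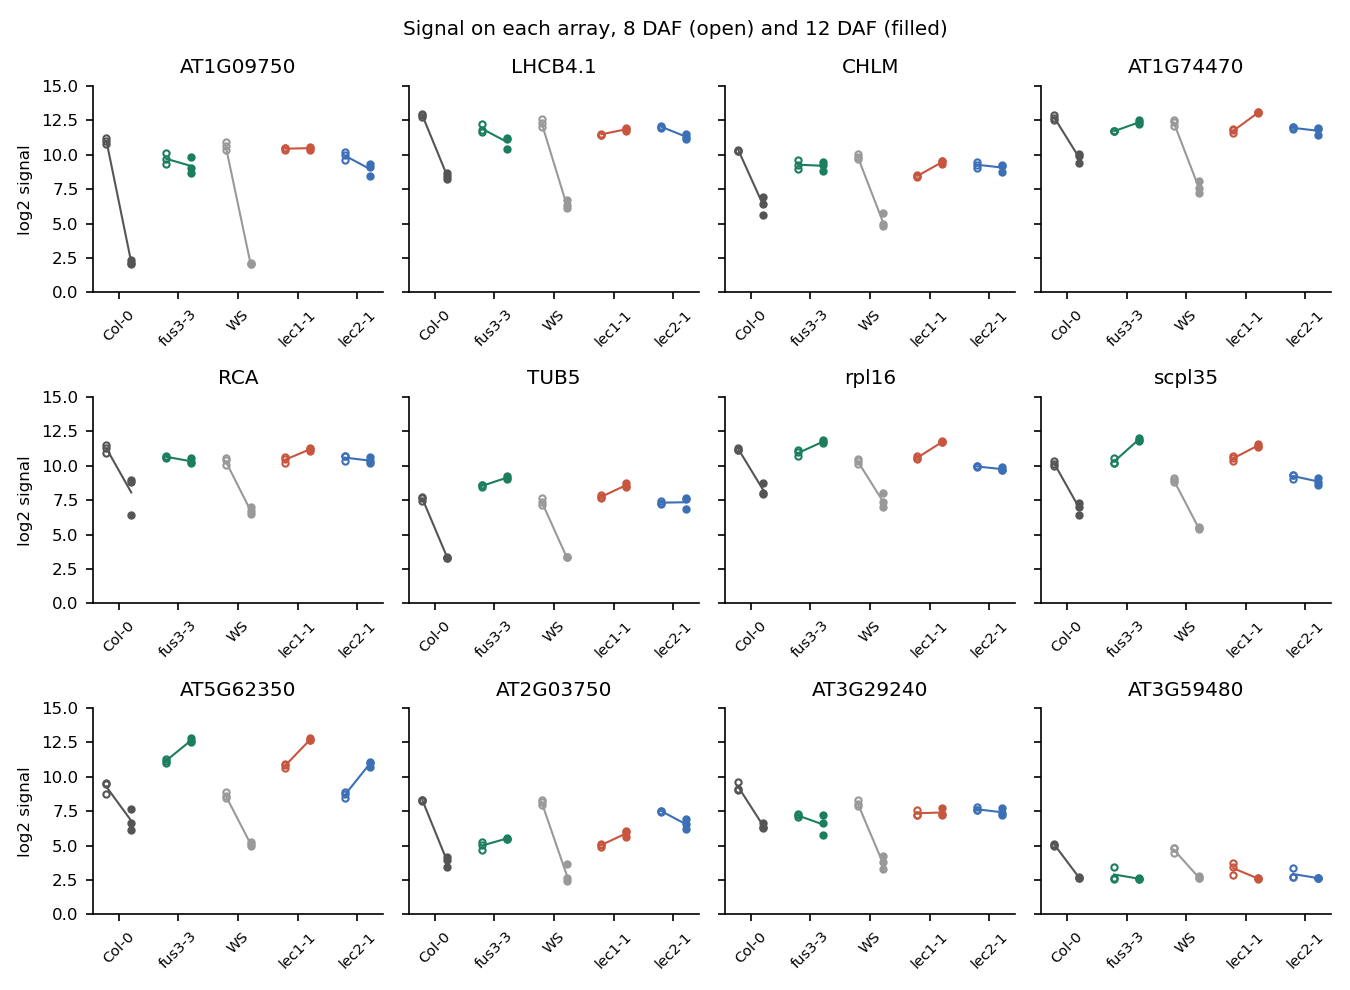
Log2 signal of 12 members on each of the 30 arrays, with 8 DAF as open and 12 DAF as filled points and lines joining the group means of each genotype. In 11 of the panels the wild-type lines drop steeply and the mutant lines drop by less than 1 or climb, and in the panel of AT3G59480 the mutant points are low at both ages.

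Carbon fixation was represented by RCA, the activase that keeps Rubisco open to its substrate, and SBPASE, the sedoheptulose bisphosphatase of the Calvin cycle. RCA read 11.54, 11.33 and 10.93 at 8 DAF and 8.98, 8.82 and 6.40 at 12 DAF in Col-0, and 10.59, 10.39 and 10.03 and then 6.99, 6.75 and 6.52 in WS. At 12 DAF it read 10.17, 10.53 and 10.29 in fus3-3, 11.29, 11.24 and 11.10 in lec1-1, and 10.32, 10.18 and 10.64 in lec2-1. The third Col-0 array at 12 DAF was far below the other 2, and the mutant arrays were above all of them. SBPASE was lower than wild type at 8 DAF by 1.38 in fus3-3, 0.68 in lec1-1 and 0.26 in lec2-1, and its age changes were -3.23 and -3.32 in the wild types against -0.04, 0.35 and -0.91.

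Plastid ribosomal proteins encoded by the plastid genome were rps2, rps3, rps19, rpl16 and rpl22. Plastid genes were 69 of the 13355 measured genes (0.517%) and 5 of the 113 members (4.42%). On the plastid chromosome rpl16, rps3, rpl22 and rps19 follow one another without a gene between them, while the only nuclear members next to each other were AT5G13090 and AT5G13100. Genes transcribed together share RNA, so these 4 plastid genes are not separate observations. For rpl16 the arrays read 11.33, 11.12 and 11.16 and then 8.03, 7.93 and 8.73 in Col-0, and 10.53, 10.33 and 10.14 and then 7.99, 7.35 and 7.02 in WS. At 8 DAF the mutants read 10.97, 11.12 and 10.71 in fus3-3, 10.52, 10.71 and 10.53 in lec1-1, and 9.98, 10.00 and 9.88 in lec2-1. At 12 DAF they read 11.63, 11.89 and 11.74, 11.72, 11.80 and 11.70, and 9.70, 9.67 and 9.92 in the same order. The fus3-3 and lec1-1 arrays were thus higher at 12 than at 8 DAF without overlap, and the lec2-1 arrays of the 2 ages overlapped.

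The 64 plastid-genome genes outside the group were not chosen by these age changes beyond failing the limits, and their grouping by product was made after the values were known. Neighbours among them may also share RNA, so the counts below are not of separate observations. Between 8 and 12 DAF, 21 of the 64 fell and none rose in Col-0, and 29 fell and none rose in WS, by limma with an adjusted p under 0.05 and at least a 2-fold change. Over all genes, 9.7% fell in Col-0 and 8.84% in WS, and 8.42% and 6.45% rose. In Col-0 the genes that fell were 7 of 10 ribosomal protein genes, 3 of 4 RNA polymerase genes and 4 of 6 ATP synthase genes, but 2 of 26 photosystem or cytochrome b6f genes and 1 of 10 NDH complex genes. In WS they were 7 of 10, 3 of 4 and 5 of 6 in the same order, and 6 of 26 photosystem or cytochrome b6f genes and 3 of 10 NDH complex genes. In fus3-3 none of the 64 fell and 2 rose (rpoA and rpl36), in lec1-1 none fell and 10 rose, and in lec2-1 none fell and 1 rose. Over all genes, 4.24% rose in fus3-3, 6.2% in lec1-1 and 6.64% in lec2-1, and 4.81%, 4.93% and 6.34% fell. The plastid genes that rose in fus3-3 and lec2-1 were thus no larger a share than among all genes. The difference between the age changes of mutant and wild type was tested in the same fits: it was positive past the threshold for 18 plastid genes in fus3-3, 47 in lec1-1 and 33 in lec2-1, and negative for none in any of them, against 8.24%, 9.35% and 5.14% of all genes on the positive side and 7.56%, 6.68% and 2.01% on the negative side.

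Among the RNA polymerase subunits, rpoC1 fell by 1.86 ± 0.26 (SE; limma, adjusted p = 0.00041) in Col-0 and changed by -2.16 ± 0.14 in WS, also past the threshold. Its age change was 0.85 in fus3-3, 0.77 in lec1-1 and -0.56 in lec2-1, and the difference from the wild-type change was 2.71, 2.92 and 1.59, positive past the threshold in each mutant. rpoB, by contrast, had age changes of -0.21 and -0.17 in the wild types and was not past the threshold in any of these comparisons. The medians over all 15 plastid ribosomal protein genes, members included, were -1.80 in Col-0 and -1.75 in WS, and those over the 26 photosystem or cytochrome b6f genes were -0.69 and -0.59. The labelling reaction starts from poly(A) tails, which plastid transcripts mostly lack, so plastid signals are a limited measure of transcript amount.

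**Figure D4:**
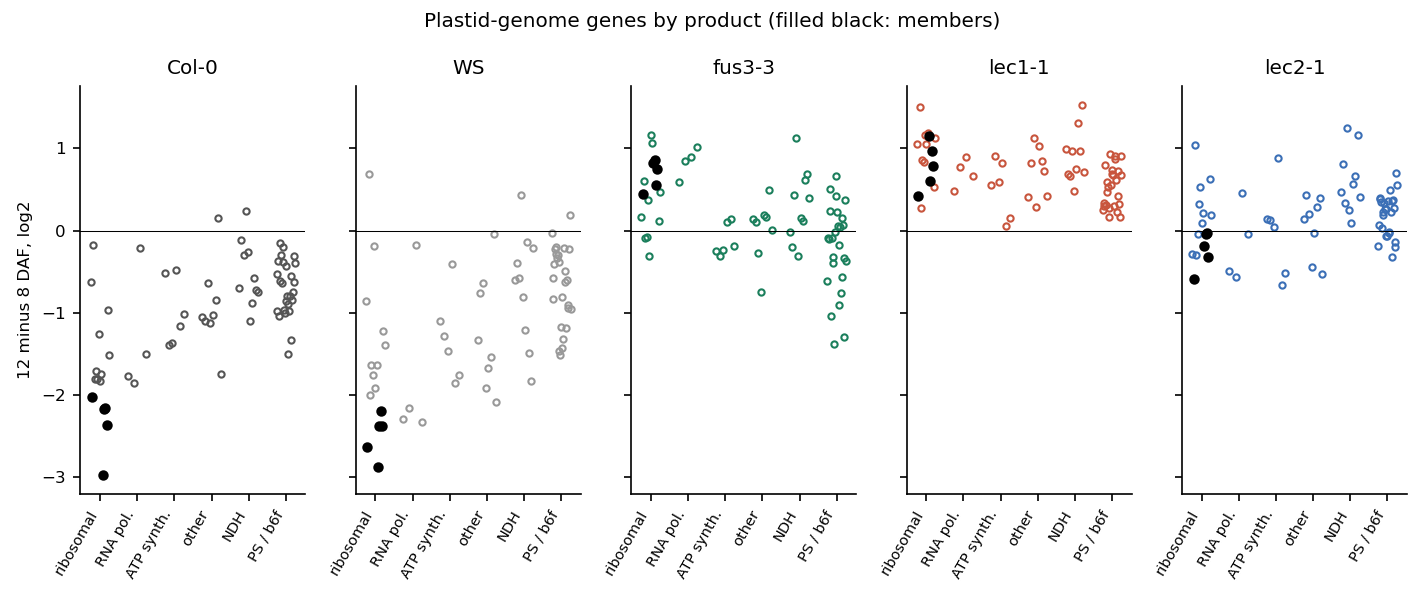
Change in log2 signal from 8 to 12 DAF for the 69 measured genes of the plastid genome, grouped by product, in the 5 genotypes, with members in black. Ribosomal protein and RNA polymerase genes reach lower values than photosystem genes in Col-0 and WS, and in lec1-1 all 69 lie above 0.

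Cytoskeletal members were TUB5, a beta-tubulin, and SP1L3, a relative of the microtubule-associated protein SPIRAL1. TUB5 read 7.42, 7.64 and 7.76 at 8 DAF and 3.30, 3.33 and 3.36 at 12 DAF in Col-0, and 7.34, 7.16 and 7.68 and then 3.38, 3.38 and 3.40 in WS. At 12 DAF it read 9.26, 9.02 and 9.14 in fus3-3, 8.75, 8.55 and 8.49 in lec1-1, and 7.57, 6.87 and 7.63 in lec2-1. All fus3-3 and lec1-1 arrays at 12 DAF exceeded every wild-type array of either age. Of the other 4 beta-tubulin genes measured, TUB7 fell in all 5 genotypes, by 1.66 in Col-0, 1.71 in fus3-3, 1.62 in lec1-1 and 1.44 in lec2-1 and by the least in WS. TUB6 fell in Col-0 by 2.32, in WS by 2.62 and in lec2-1 by 1.06, and its age changes of -0.20 in fus3-3 and -0.10 in lec1-1 were not past the threshold. TUB1 changed by -1.32 in Col-0, 1.06 in fus3-3, 1.36 in lec1-1 and -1.29 in lec2-1, all past the threshold, and by -0.50 in WS. TUB9 was past the threshold in Col-0 (-1.16) and lec2-1 (-1.24), but not in WS (-0.75), fus3-3 (-0.10) or lec1-1 (-0.33).

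Families of the named members were compared after their values had been seen. Of the HEM genes outside the group, HEMA2 and HEMA3, which encode glutamyl-tRNA reductases, were not past the threshold with age in either wild type. AT4G38100 (CURT1D) had age changes of -0.05 in Col-0 and 0.01 in WS. NDB1, an external NAD(P)H dehydrogenase of mitochondria, changed by -2.24 and -2.62 in the wild types against 0.39, 0.29 and -0.86 in the mutants, whereas its relative NDB2 rose by 2.18 in Col-0 and 1.07 in WS. In the LHCB4 family, LHCB4.2 met the limits of the rule and was left out by name, with age changes of -4.18 in Col-0 and -5.43 in WS. LHCB4.3 fell in all 5 genotypes, by 2.03 in Col-0, 2.83 in fus3-3, 1.45 in WS and 2.25 in lec1-1, and by the least in lec2-1.

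Other named members came from unrelated families. UGT88A1, a glycosyltransferase, read 9.56, 9.65 and 9.18 and then 5.47, 4.76 and 4.81 in Col-0, and 8.53, 8.18 and 7.73 and then 2.51, 2.97 and 2.77 in WS. The glycosidase-family gene BGLU44 had age changes of -3.01 and -3.11 in the wild types, 1.14 in fus3-3, 1.46 in lec1-1 and -0.50 in lec2-1. scpl35, a serine carboxypeptidase-like gene, changed by -3.21 and -3.48 against 1.62, 0.93 and -0.39. HVA22C, a relative of the ABA-induced HVA22 of barley, changed by -3.97 and -4.05 against 0.20, 0.67 and -0.33. CP5 changed by -2.61 and -3.21 against 1.03, 1.85 and 1.08. For the remaining 83 members, which carry no gene name in the annotation, the median age changes were -3.16 in Col-0, -2.95 in WS, 0.25 in fus3-3, 0.71 in lec1-1 and -0.25 in lec2-1. These 83 were not sorted by role, so some may share the roles described above. The 5 of these with the highest wild-type signal at 8 DAF were AT1G09750, AT2G43030, AT3G54210, AT4G01310 and AT5G24490, and the last 4 had lec1-1 age changes of 0.31, 0.72, 1.00 and 1.38.

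The rule set the same limit on lec1-1 and lec2-1 and did not compare them, so the difference between these mutants of the same background was tested by limma over all 13355 genes, on arrays that had also entered the rule. At 12 DAF 45 members (39.8%) were higher in lec1-1 than in lec2-1 and none was lower, where 5.52% of all genes were higher and 5.49% lower. The median difference of the 113 members was 0.85, that is 1.80-fold, against -0.03 for all genes. All 5 ribosomal protein members encoded by the plastid genome, 3 of 6 chlorophyll synthesis members and 6 of 9 other named members were among the 45. Of these, rpl16, rps3, rpl22 and rps19 are neighbours and not separate observations. None of the 6 thylakoid and none of the 2 carbon fixation members with a name or list entry was among the 45. Another 30 came from the 83 members without a gene name, which were not sorted by role, so the classes are incomplete.

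Of these differences the largest was that of scpl35. At 12 DAF its arrays read 11.39, 11.61 and 11.45 in lec1-1 and 8.86, 8.62 and 9.11 in lec2-1, a difference of 2.62 ± 0.13 (SE; adjusted p = 3.2e-09) or 6.14-fold. AT3G17680 read 8.76, 8.88 and 8.74 in lec1-1 against 6.49, 5.70 and 6.73 in lec2-1, a difference of 2.48 ± 0.21 (adjusted p = 6.3e-07). The groups did not overlap for either gene. rpl16, whose arrays are given above, differed by 1.98 ± 0.18 (adjusted p = 1.2e-06), and rps19 and rps2 by 1.69 ± 0.20 and 1.59 ± 0.24. AT5G62350, AT1G47670 and AT5G24490 differed by 1.76, 1.72 and 1.699, and LIL3:2 by 1.65. AT1G74470, whose product LIL3:2 stabilises, was higher by 1.32 ± 0.19 (adjusted p = 8.1e-05).

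At 8 DAF the same comparison gave 16 members (14.2%), 4 higher and 12 lower in lec1-1, against 2.26% and 2.81% of all genes, and this balance turned when the arrays were centred on reference genes. The 12 included none of the members placed by name or list entry in the thylakoid, chlorophyll synthesis, carbon fixation or plastid-genome ribosomal classes. Of the 16, 14 came from the 83 members without a gene name, which were not sorted by role. AT2G03750 read 5.13, 4.92 and 5.08 in lec1-1 and 7.55, 7.54 and 7.47 in lec2-1, a difference of -2.48 ± 0.25 (SE; adjusted p = 1e-05). iqd21 read 6.19, 6.26 and 5.91 in lec1-1 and 8.56, 8.24 and 8.00 in lec2-1, a difference of -2.15 ± 0.17 (adjusted p = 8.1e-07). For both genes the lec2-1 arrays lay between the lec1-1 and WS arrays, since WS read 8.29, 8.17 and 7.96 for AT2G03750 and 9.72, 9.83 and 9.90 for iqd21. In the other direction, AT5G62350 read 10.96, 10.85 and 10.66 in lec1-1 and 8.88, 8.72 and 8.49 in lec2-1, a difference of 2.12 ± 0.13 (adjusted p = 7.5e-08). AT5G62350, AT5G01750, AT1G68780 and scpl35 were higher in lec1-1 at both ages, and no member was lower at 8 and higher at 12 DAF past the threshold. When the arrays were centred on 5 measured reference genes, which moved the all-gene median of lec1-1 minus lec2-1 to 0.25 at 8 DAF and 0.28 at 12 DAF, 6 members were higher and 5 lower at 8 DAF, the members' median moved from -0.14 to 0.10, and 66 higher and none lower at 12 DAF.

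The 2 wild types were compared in the same way, although background and array set cannot be told apart in that comparison. At 8 DAF 18 members (15.9%) were lower and 1 was higher in WS than in Col-0, where 3.09% of all genes were lower and 3.15% higher. At 12 DAF 28 members (24.8%) were lower and none was higher, where 3.27% of all genes were lower and 1.97% higher. The median difference of the members was -0.47 at 8 DAF and -0.54 at 12 DAF. 9 members were lower in WS at both ages. Without the third WS array at 8 DAF the 19 members of that age became 12, and with only the 2 compared groups in the fit the 28 members of 12 DAF became 18.

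AT5G48490 had the largest difference at 8 DAF. Its arrays read 10.54, 10.36 and 10.18 in Col-0 and 7.79, 7.04 and 6.14 in WS, a difference of -3.37 ± 0.32 (SE; limma, adjusted p = 0.00013), and at 12 DAF they read 3.03, 3.04 and 3.04 against 3.24, 3.20 and 3.05. The groups were far apart at the earlier age and both close to the lowest level of the array at the later one. AT3G29240 had the largest difference at 12 DAF, with 6.33, 6.31 and 6.66 in Col-0 and 4.27, 3.32 and 3.80 in WS, a difference of -2.63 ± 0.25 (adjusted p = 0.00019). In fus3-3 this gene read 5.79, 7.22 and 6.61 at 12 DAF, which overlapped Col-0, while lec1-1 at 7.22, 7.30 and 7.71 and lec2-1 at 7.22, 7.70 and 7.36 stood well above WS.

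Several members of the chlorophyll and thylakoid classes were lower in WS at 12 DAF. AT1G74470 was lower by 2.12 ± 0.25 (SE; adjusted p = 0.00055), LIL3:2 by 2.07 ± 0.29, LHCB4.1 by 2.05 ± 0.19, AT2G26500 by 2.04 ± 0.23 and NdhS by 1.73 ± 0.15. UGT88A1 and CP5 were lower by 2.27 and 2.05 at 12 DAF and by 1.32 and 1.45 at 8 DAF. iqd21 was the only member higher in WS past the threshold, by 1.06 ± 0.26 at 8 DAF (adjusted p = 0.021). When the arrays were centred on reference genes, 0 members were called higher and 22 lower in WS at that age.

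**Figure D5:**
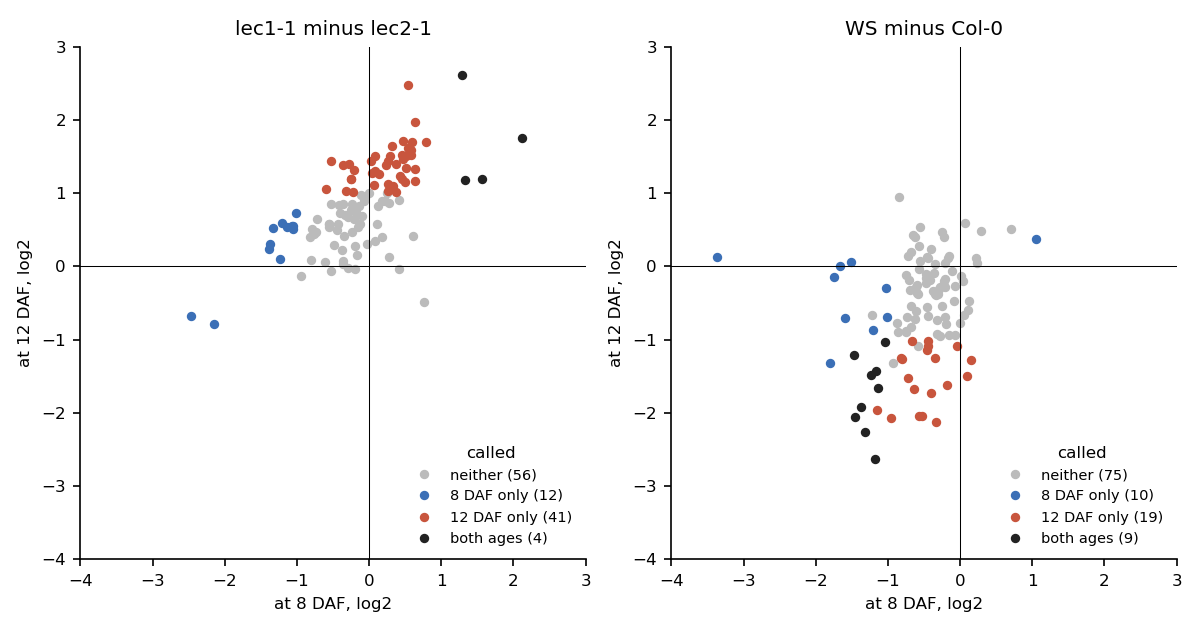
Differences in log2 signal of the 113 members at 8 DAF (horizontal) and 12 DAF (vertical), for lec1-1 minus lec2-1 on the left and WS minus Col-0 on the right. Colour gives the age at which a member passed an adjusted p of 0.05 and a 2-fold change: 41 members passed at 12 DAF alone in lec1-1 minus lec2-1, all above 0, and all 28 that passed at 12 DAF in WS minus Col-0 lie below 0.

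Lists of photosynthesis and chloroplast genes gave 26 measured genes of 145 (light reactions, Calvin cycle, chlorophyll synthesis, photorespiration, carotenoid synthesis, starch metabolism and greening regulators). Of the 26, 15 met the limits of the rule: 7 are members and 8 were left out by name. They were 8 of 9 light-reaction genes, 3 of 3 Calvin cycle genes and 4 of 7 chlorophyll synthesis genes, but none of the 3 photorespiration, 2 starch, 1 carotenoid and 1 regulator genes. These counts cover the measured genes of the lists only, and members of the same pathways may stand outside the lists. The lists themselves were chosen with earlier results of these data known. With age, 8 of the other 11 genes fell and 2 rose in Col-0, and 6 fell and none rose in WS, against 9.7% and 8.84% of all genes that fell and 8.42% and 6.45% that rose. In the mutants 1 fell in fus3-3, 1 fell and 2 rose in lec1-1, and 3 fell and 1 rose in lec2-1, where 4.81%, 4.93% and 6.34% of all genes fell. Leaving out the second lec2-1 array of 8 DAF, or that of 12 DAF, reduced the 4 lec2-1 genes to 2.

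The age change was higher in the mutant than in its wild type for 7 of the 11 in fus3-3, 7 in lec1-1 and 3 in lec2-1, and lower for none, against 8.24%, 9.35% and 5.14% of all genes that were higher. Of all genes, 7.56%, 6.68% and 2.01% were lower. Without the second lec2-1 array of 12 DAF the 3 of lec2-1 became 5. The rule had sorted the list genes by the same age changes, so these counts are not independent of it. HPR encodes the hydroxypyruvate reductase of photorespiration. It fell by 1.53 ± 0.23 (SE; adjusted p = 0.0006) in Col-0 and by 4.03 ± 0.16 in WS, and rose by 1.37 ± 0.16 in lec1-1. AT1G11860, held by the same list, fell by 1.03 in Col-0 and 2.25 in WS and rose by 1.21 in lec1-1. CHLI2, a subunit of magnesium chelatase, fell by 3.68 ± 0.11 (adjusted p = 3.9e-08) in Col-0, and also fell in WS and by 1.14 ± 0.30 in lec2-1, the last of which kept it outside the group.

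HEMB1, the next enzyme of tetrapyrrole synthesis after aminolevulinate is made, fell by 1.75 in Col-0 and 1.298 in WS, and GSA1, the aminotransferase that makes aminolevulinate, fell by 1.22 in Col-0. DPE1, the plastid disproportionating enzyme of starch breakdown, fell by 2.14 in Col-0, and its change of -0.99 in WS was not past the threshold. SBE2.2, a starch branching enzyme, fell by 1.99 in Col-0, 1.80 in WS and 1.61 in lec2-1. HYH, a bZIP factor of light signalling, and AT1G80380 rose in Col-0 by 2.18 and 1.62, against the direction of the 8 that fell, and AT1G80380 also rose in lec2-1 by 1.09. LYC, a lycopene cyclase, was not past the threshold in any genotype.

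Markers of seed tissues and RNA quality moved with some of these contrasts, and their part in the results was not tested. Of 8 endosperm markers 3 were measured. The log2 of their summed signal at 12 DAF was 4.14 to 4.17 in Col-0, 5.65 to 6.30 in fus3-3, 4.25 to 4.33 in WS, 5.63 to 6.91 in lec1-1 and 4.26 to 4.89 in lec2-1, and at 8 DAF it was 4.05 to 4.18 in all genotypes. MPC made this difference, while the group means of AGL62 and IKU2, which are active in early endosperm, stayed between 2.38 and 2.81. Of 9 seed coat markers 3 were measured, and their sum at 12 DAF was 10.4 to 10.6 in Col-0, 10.1 to 10.8 in fus3-3, 9.60 to 9.72 in WS, 9.77 to 9.99 in lec1-1 and 9.24 to 9.60 in lec2-1. At 8 DAF the same sum was 12.4 to 12.6 in Col-0, 11.9 to 12.5 in fus3-3, 11.2 to 11.3 in WS, 11.7 to 11.9 in lec1-1 and 11.3 to 11.6 in lec2-1. ARA12 made most of this sum at both ages. Its group mean at 12 DAF was 10.44 in Col-0 and 9.63 in WS, against 3.70 and 2.76 for BAN. BAN fell with age past the threshold in all 5 genotypes, and AT3G50990 in Col-0 alone. The silique wall list had 1 of 5 markers measured, ALC, at 3.42 to 4.15 in Col-0 and 3.21 to 3.84 in WS at 12 DAF, and at 4.96 to 5.70 in fus3-3, 5.38 to 5.58 in lec1-1 and 4.94 to 5.11 in lec2-1. At 8 DAF ALC lay at 3.35 to 3.56 in Col-0, 3.84 to 4.57 in fus3-3, 2.87 to 3.41 in WS, 3.55 to 3.95 in lec1-1 and 3.59 to 4.08 in lec2-1. For RNA quality, the mean 3' minus 5' log2 signal of the GAPDH control moved from 1.58 at 8 DAF to 2.37 at 12 DAF in Col-0, from 1.39 to 1.92 in fus3-3, from 1.71 to 2.25 in WS, from 1.60 to 1.86 in lec1-1 and from 1.57 to 2.19 in lec2-1. It was higher at 12 DAF in every genotype. That of actin moved from 5.54 to 4.87 in Col-0, from 5.60 to 5.91 in fus3-3, from 5.69 to 5.33 in WS, from 6.03 to 5.47 in lec1-1 and from 5.90 to 5.32 in lec2-1, so it was lower at 12 DAF in all but fus3-3.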

How the data were processed

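Concert Plant RNA Reagent and RNeasy served to purify the RNA, and a One-Cycle kit turned 2 µg into biotin-labelled cRNA, per the labels' protocols. Per the submitters' processing notes, GCOS 1.3 and GCRMA were used, and the values the authors deposited are log2 signal. Whether all arrays were processed together is not given in the sources used here. Labels of the Col-0 arrays at 12 DAF carry a double number, and its latter part was read as the replicate. Of 22810 probe sets, 64 were controls, 13513 had 1 gene, 503 several and 8730 none. Each of 13355 genes was read from its brightest single-gene probe set over 30 arrays, named with the array annotation and a TAIR10.1 gene table. Deposited values were used unchanged.

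Members and lists were chosen with earlier results of these data known. The named genes were, per role, up to 5 members of highest wild-type signal at 8 DAF, the 6 largest falls, up to 8 called differences per tested contrast, 3 genes on each side of each limit, and the list genes outside the group. limma 3.58.1 (R 4.3.3) was fitted to the 12 arrays of the Col-0 set, the 18 of the WS set, or the 12 wild-type arrays, with Benjamini-Hochberg adjustment over all genes. A gene rose, fell or was called at an adjusted p under 0.05 and a 2-fold change. The fit of lec1-1 against lec2-1 was tested on simulated data. Same-numbered arrays deviated together in fus3-3 (r = 0.246, 0.218 and 0.447 between 8 and 12 DAF) and, by the limit of 0.1, in none of the other pairs examined. Those pairs were 8 and 12 DAF of each other genotype, and lec1-1 with lec2-1 and WS with Col-0 at each age. Mutants were not examined against their own wild types. Alternatives were another normalisation, centring on reference genes, a filter on dim genes, other sets of arrays in the fit, no fold minimum, a replicate block and leaving out each array. Precision is limited by 3 arrays per group.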

Additional observations from a re-analysis of the deposited data

Results flagged for a closer look

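For 17 differences between a mutant and its wild type in the age change of a list gene outside the group, the test of the difference itself passed the threshold, which is what drew attention to them. A positive value means that the signal changed less downwards, or more upwards, in the mutant. In fus3-3 against Col-0 the difference passed the threshold for CHLI2 (3.84), DPE1 (2.86), GSA1 (1.97), HEMB1 (1.93), AT1G11860 (1.54), HPR (1.33) and SBE2.2 (1.28). In lec1-1 against WS it passed for HPR (5.40), AT1G11860 (3.46), CHLI2 (2.34), DPE1 (1.99), HEMB1 (1.88), GSA1 (1.51) and SBE2.2 (1.41). In lec2-1 against WS it passed for HPR (4.22), AT1G11860 (1.94) and DPE1 (1.295). These genes come from the lists of chlorophyll synthesis, photorespiration and starch metabolism. Those lists were chosen with earlier results of these data known, and the rule had sorted their genes by the same age changes.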

How the results depend on the processing

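Centring on reference genes turned the balance of members called between lec1-1 and lec2-1 at 8 DAF, from 4 higher and 12 lower to 6 higher and 5 lower, and the members' median from -0.14 to 0.10; no single gene named changed its sign under the alternatives run. Other counts moved by over 1.5 times as follows. Without the fold minimum, list genes called with age became 3 in fus3-3, 10 in WS and 7 in lec1-1, those with a different age change in lec2-1 became 5, and members called became 35 at 8 DAF and 79 at 12 DAF between lec1-1 and lec2-1 and 33 at 8 DAF between WS and Col-0. The list genes called with age in fus3-3 became 2 with all 30 arrays in 1 fit and 2 among genes above the 40th percentile. Members called between WS and Col-0 at 12 DAF became 18 with only the compared groups in the fit. Leaving out 1 array at a time gave 2 to 4 list genes with age and 3 to 5 with a different age change in lec2-1, and 12 to 18 members between WS and Col-0 at 8 DAF. With the replicate block 16 and 45 members were called between lec1-1 and lec2-1, as without it. With it 18 and 26 members were called between WS and Col-0 at 8 and 12 DAF, without AT5G01750 at 8 DAF (adjusted p = 0.063, limma) and AT2G37660 and AT2G45340 at 12 DAF (0.051 and 0.054). Among list genes the block changed 1 call: the age change of AT1G80380 in fus3-3 differed from that in Col-0 by -1.28, with an adjusted p of 0.034 (limma) in place of 0.054. Among single genes, 39 calls without 1 array and 8 under other alternatives lost the threshold with the same direction. Centring on reference genes moved the all-gene median of lec1-1 minus lec2-1 to 0.25 at 8 DAF and 0.28 at 12 DAF, that of WS minus Col-0 at 8 DAF to -0.14, and that of the difference in age change between fus3-3 and Col-0 to 0.11. Signals close to the lowest level of the array limit the falls of dim members.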
